A study of Mus musculus with 6 samples.

Results

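The genes described here are 36 genes of glycolysis, the pentose phosphate pathway and glucose sensing, taken by symbol from a table of 55487 genes counted in megakaryocyte-erythroid progenitors of mouse bone marrow. The list matched 37 gene identifiers, because GENCODE M21 gives the symbol Aldoa to 2 genes. The stated aim was to learn what a short fast does to erythropoiesis. All 6 libraries came from wild-type C57BL/6 mice aged 8 weeks. A group of 3 libraries is labelled control and the other 3 had no food for 6 h, and no other treatment is named. The labels do not say whether a library is 1 mouse or a pool, nor whether libraries of a group came from separate animals, so p-values measure only the spread between these libraries.

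Glycolysis splits glucose into pyruvate and yields ATP without oxygen. The pentose phosphate pathway branches off it to make NADPH and ribose. Red cell precursors use glucose heavily, and mature red cells, which have no mitochondria, depend on glycolysis alone. Fasting lowers blood glucose and insulin, and cells read the glucose inside them through the MondoA and ChREBP factors, whose best known target is Txnip.

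Library totals ran from 22445970 to 30246110 counts in the control group and from 12797144 to 18225191 in the fasted group, so the fasted libraries were shallower. Odorant and vomeronasal receptor genes, which blood cells do not use, served as a gauge of background. At their rate, background made up 3.90 to 8.60% of counts in the controls, against 11.5 to 14.6% after the fast. Genes were therefore scaled and tested only where their mean count reached 5 times this background, which left 10635 genes and 35 of the 36 members. Levels are CPM, relative to the TMM-scaled counts of these genes, and values for a group are always in the order of libraries 1, 2 and 3. Of 16 erythroid markers 14 were tested, and Car1 had 21555 to 50429 counts per library. The granulocyte marker Mpo had 72380 to 215356 counts in the controls, above Car1 in each, and 7596 to 31446 after the fast. Car2, also an erythroid marker, had 102004, 82551 and 41536 counts in the controls, above Mpo in control library 1 and below it in libraries 2 and 3. All 18 granulocyte and monocyte markers were tested too. Their summed level was 4154, 13434 and 20213 CPM in the controls, against 5307, 3733 and 2306 CPM after the fast, so the groups overlapped at control library 1. The median log2 fold change of the tested markers, fasted over control, was 0.32 for the erythroid list, -0.50 for 7 of 12 megakaryocyte and platelet markers, 0.93 for 7 of 13 lymphocyte markers, -0.45 for 8 of 10 mast cell, basophil and eosinophil markers and -0.39 for 8 of 12 stem and multipotent progenitor markers. When all filterByExpr genes set the scale, the erythroid median turned to -0.14, the lymphocyte median was 0.45 and those of the other 3 lists were -1.05, -0.91 and -0.93.

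No gene of the list passed the test, and more of its members lay lower in fasted libraries than higher. Of the 35 tested members, 0 had an edgeR adjusted p under 0.05, where 0% of all 10635 genes did. At an unadjusted p under 0.05, edgeR gave 12 members lower in fasted libraries, against 8.3% of all genes, and 3 members higher, against 11.5% of all genes. The 3 higher ones were Pfkfb4, Pdk2 and Arrdc4, a smaller share of the 35 than of all genes. The 12 lower ones were Hk3, Gpi1, Pfkl, Pfkp, Aldoa, Pgk1, Pgam1, Eno1, Pkm, Ldhb, Pdk3 and Pgd. The groups did not overlap for 10 members that were lower (12.9% of all genes) and 3 that were higher (14.4% of all genes). The median log2 fold change of the members was -0.17, beside 0.02 over all genes tested, and 23 of 35 members were below 0, beside 47.7% of all genes. DESeq2 on the same genes passed 5 members at an adjusted p under 0.05: Eno1, Pgam1 and Pkm were lower, where 1.65% of all genes were, and Pfkfb4 and Pdk2 were higher, where 3.07% were. limma-voom passed 0 members and 0 genes, with 15 members and 2107 genes at an unadjusted p under 0.05.

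The direction of many members hangs on the scaling between libraries. When all 36508 genes kept by filterByExpr were scaled and tested together, the median of the genes well above background moved to -0.50 and that of the members to -0.68. That fit passed 13 members, all lower, and 4.97% of all its genes. Of the 10635 genes well above background it passed 12.9% as lower and 0.0752% as higher. The members' median was 0.18 below that of the same genes there, and 0.19 below it in the fit used here. The SD of this gap between libraries of a group was 0.18. With a limit of 10 times background, which kept 30 members, the gap was -0.09. With background subtracted it was -0.12. All log2 fold changes that follow are fasted over control in the fit of 10635 genes.

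**Figure D1:**
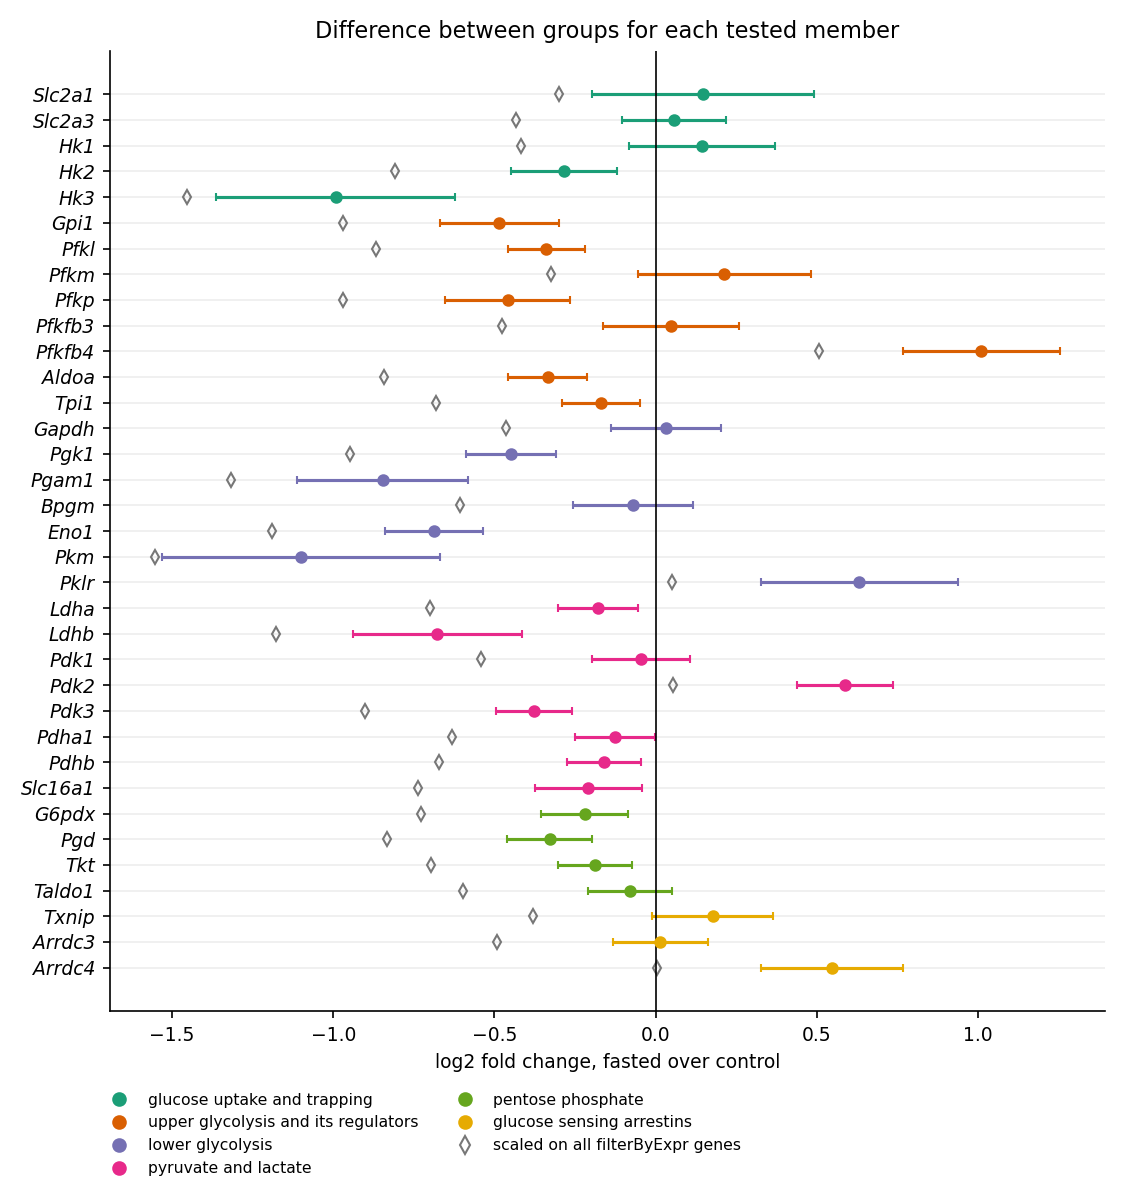
Log2 fold change of each tested member, fasted over control, with its SE as a bar, coloured by role. Open diamonds show the same member when all filterByExpr genes set the scale, and they lie to the left of every filled point; Pfkfb4 is the highest member at 1.01 and Pkm the lowest at -1.10.

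Glucose enters through the transporters Slc2a1 (GLUT1) and Slc2a3 (GLUT3) and is trapped by hexokinases. Slc2a1 had 26.1, 27.9 and 59.0 CPM in the controls, against 43.6, 51.5 and 29.8 CPM after the fast. One control library was the highest of all and the other 2 the lowest, so the groups overlapped fully, with a log2 fold change of 0.15 (95% interval -0.64 to 0.93, edgeR adjusted p 0.832). Slc2a3 ran from 103 to 140 CPM over all 6 libraries, with a log2 fold change of 0.06 (95% interval -0.30 to 0.42). Both signs turn negative, to -0.30 and -0.43, when all filterByExpr genes set the scale. The share of Slc2a3 in the pair was 61.3% ± 7.29 (SD, n = 3) per kilobase in the controls and 58.8% ± 3.84 (SD, n = 3) after the fast (p = 0.8, two-sided exact permutation test).

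Hexokinase 1, the form of most tissues and of red cells, had the highest mean level of the family. Hk1 stood at 55.4 CPM per kilobase, Hk3 at 32.2 and Hk2 at 6.48. Hk1 took 67.8, 46.7 and 38.2% of the family in the controls and 57.6, 68.5 and 78.3% after the fast, and Hk3 took 25.2, 46.8 and 54.5% and 34.8, 25.4 and 15.0%. These 2 shares were not among those tested, and in control libraries 2 and 3 it was Hk3 that led. Hk3 (ENSMUSG00000025877.14, GRCm38 chromosome 13, 55005985 to 55021385, minus strand), the form typical of granulocytes and monocytes, had the largest difference of the uptake genes. It had 99.8, 170 and 203 CPM in the controls, against 110, 82.1 and 45.3 CPM after the fast. Control library 1 lay among the fasted libraries, and the 6 libraries stood in the same order for Hk3 as for the summed granulocyte and monocyte markers. On the log2 scale the groups differed by -0.99 (SE 0.37, edgeR adjusted p 0.215). Fewer cells of a type and less RNA per cell cannot be told apart in bulk RNA.

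Hk2, the insulin- and hypoxia-responsive form, had 44.7, 38.0 and 44.7 CPM in the controls, against 39.4, 32.2 and 33.1 CPM after the fast, with fasted library 1 inside the control range. Fasted over control, the log2 fold change came to -0.29 (SE 0.16, edgeR adjusted p 0.356). Hk1 had 622, 394 and 330 CPM in the controls, against 424, 515 and 550 CPM after the fast, with overlap and a log2 fold change of 0.14 (95% interval -0.37 to 0.66) that becomes -0.42 on the scale of all filterByExpr genes. Counted per kilobase, Hk2 made up 6.94% ± 0.47 (SD, n = 3) of the hexokinase family in the controls and 6.84% ± 0.76 (SD, n = 3) after the fast. Such a share does not depend on scaling between libraries. The 2 means differed by less than the spread between replicates (p = 0.9, two-sided exact permutation test, adjusted p = 1 over 9 families).

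**Figure D2:**
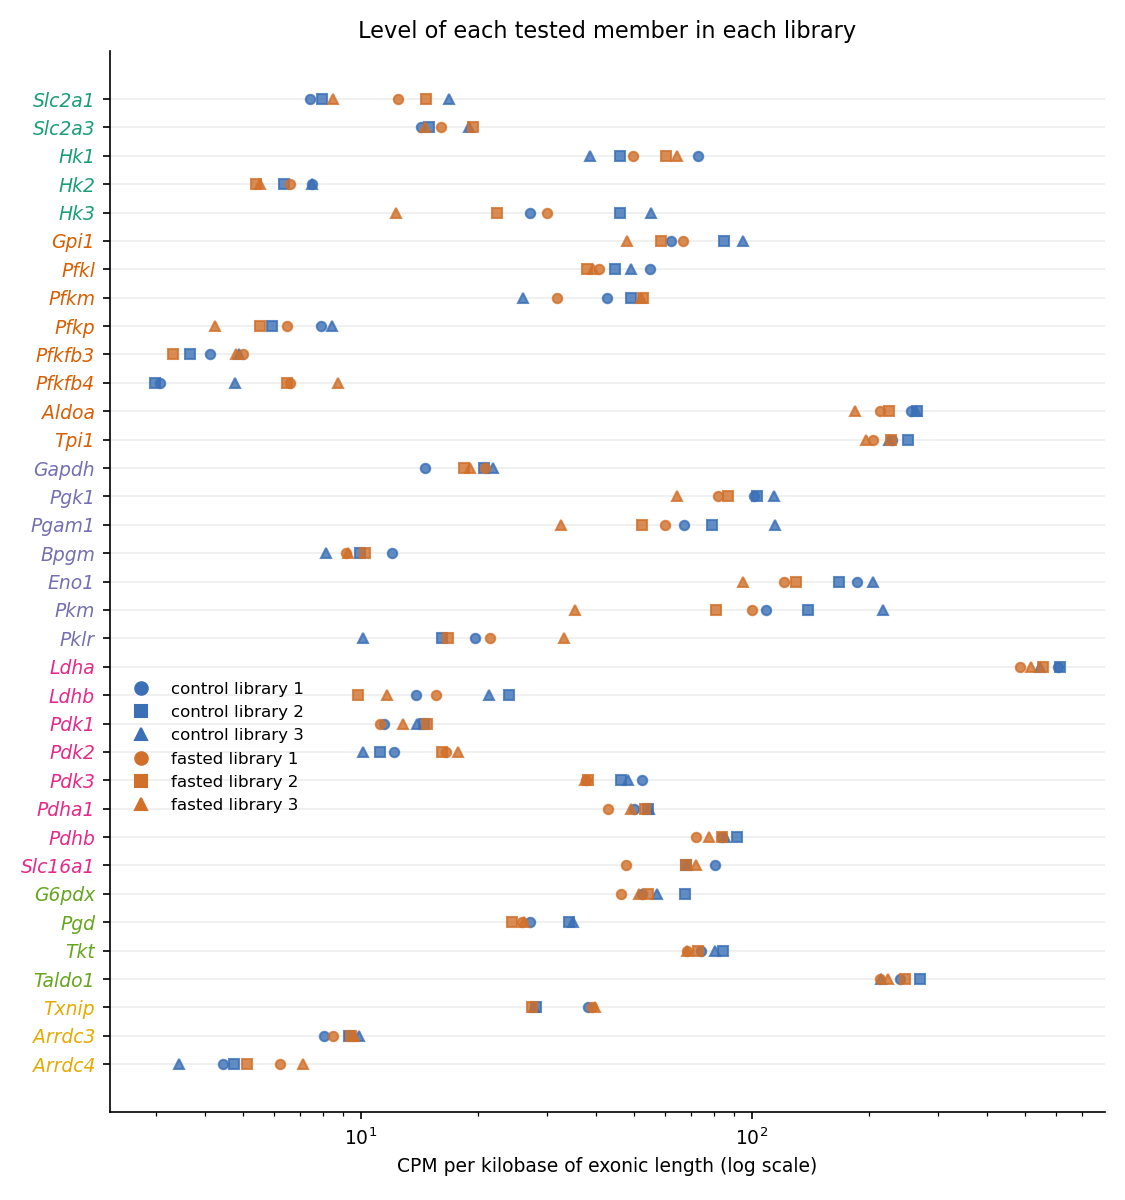
Level of each tested member in each of the 6 libraries, in CPM per kilobase of exonic length on a log axis, with gene names coloured by role. Ldha is the highest at a mean of 554 and Pfkfb3 the lowest at 4.30, and for most members control and fasted libraries interleave.

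In upper glycolysis the 2 highest members per length were the aldolase Aldoa, at 234 CPM per kilobase, and the triose phosphate isomerase Tpi1, at 222, at the 98.1th and 98.0th percentile of the genes tested. Aldoa had 745, 772 and 766 CPM in the controls, against 621, 653 and 536 CPM in fasted libraries. The fasted libraries all lay below the control ones, with a log2 fold change of -0.33 (SE 0.12, edgeR adjusted p 0.197). Its namesake ENSMUSG00000114515.2, just upstream on chromosome 7, had 26 to 64 counts per library, 4.02 times the background, and was not tested. Gpi1, the isomerase that follows hexokinase, had 402, 547 and 615 CPM in the controls and 431, 378 and 309 CPM after the fast, overlapping at control library 1 (log2 fold change -0.48, SE 0.18, edgeR adjusted p 0.206).

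Phosphofructokinase, the committing step, has liver (Pfkl), muscle (Pfkm) and platelet (Pfkp) forms, named for the tissues where they prevail. Pfkl stood at 44.5 CPM per kilobase and Pfkm at 42.4, with Pfkp far below at 6.43. Pfkl was 367, 299 and 329 CPM in the controls and 272, 253 and 262 CPM after the fast, with no overlap (log2 fold change -0.34, SE 0.12, edgeR adjusted p 0.189). Pfkm and Pfkp had log2 fold changes of 0.21 (SE 0.27) and -0.46 (SE 0.19), and their groups overlapped. The share of Pfkp in the family was 7.85% ± 2.08 (SD, n = 3) in the controls and 6.13% ± 1.92 (SD, n = 3) after the fast (p = 0.4, two-sided exact permutation test).

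Pfkfb3 and Pfkfb4 encode bifunctional enzymes that set fructose 2,6-bisphosphate, the main activator of phosphofructokinase. Pfkfb4 (ENSMUSG00000025648.18, chromosome 9, 108991778 to 109032228, plus strand) had the largest positive difference of all members. It had 15.0, 14.5 and 23.3 CPM in the controls, against 32.2, 31.6 and 42.6 CPM after the fast. Every fasted library exceeded every control library, and the fitted ratio was 2.01. The fitted difference was 1.01 on the log2 scale (SE 0.24, 95% interval 0.46 to 1.56), with an edgeR adjusted p of 0.131 and a DESeq2 adjusted p of 0.00913. The gene lay at 6.65 times the background, on 343 to 565 counts per library. Subtracting the background of each library gave 1.08 (edgeR adjusted p 0.195), so the difference was as large without it. Leaving out 1 library at a time gave 0.86 to 1.24. On the scale of all filterByExpr genes it was 0.51 (edgeR adjusted p 0.179). None of its 50-base words occurred in a transcript of another gene.

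Pfkfb3, the inducible partner, had 31.2, 27.7 and 37.0 CPM in the controls and 37.8, 25.1 and 36.3 CPM after the fast, fully interleaved (log2 fold change 0.05, 95% interval -0.43 to 0.52). That sign turns to -0.48 on the scale of all filterByExpr genes and to -0.10 with background subtracted. Within the pair, Pfkfb4 made up 42.7, 44.8 and 49.4% of counts per kilobase in the controls, against 56.9, 66.1 and 64.5% after the fast. The share was larger in every fasted library than in any control library, by 16.9 percentage points between the means. The two-sided exact permutation test gave p = 0.1, the smallest p that 3 against 3 libraries allow, and 0.3 after adjustment over 9 families.

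**Figure D3:**
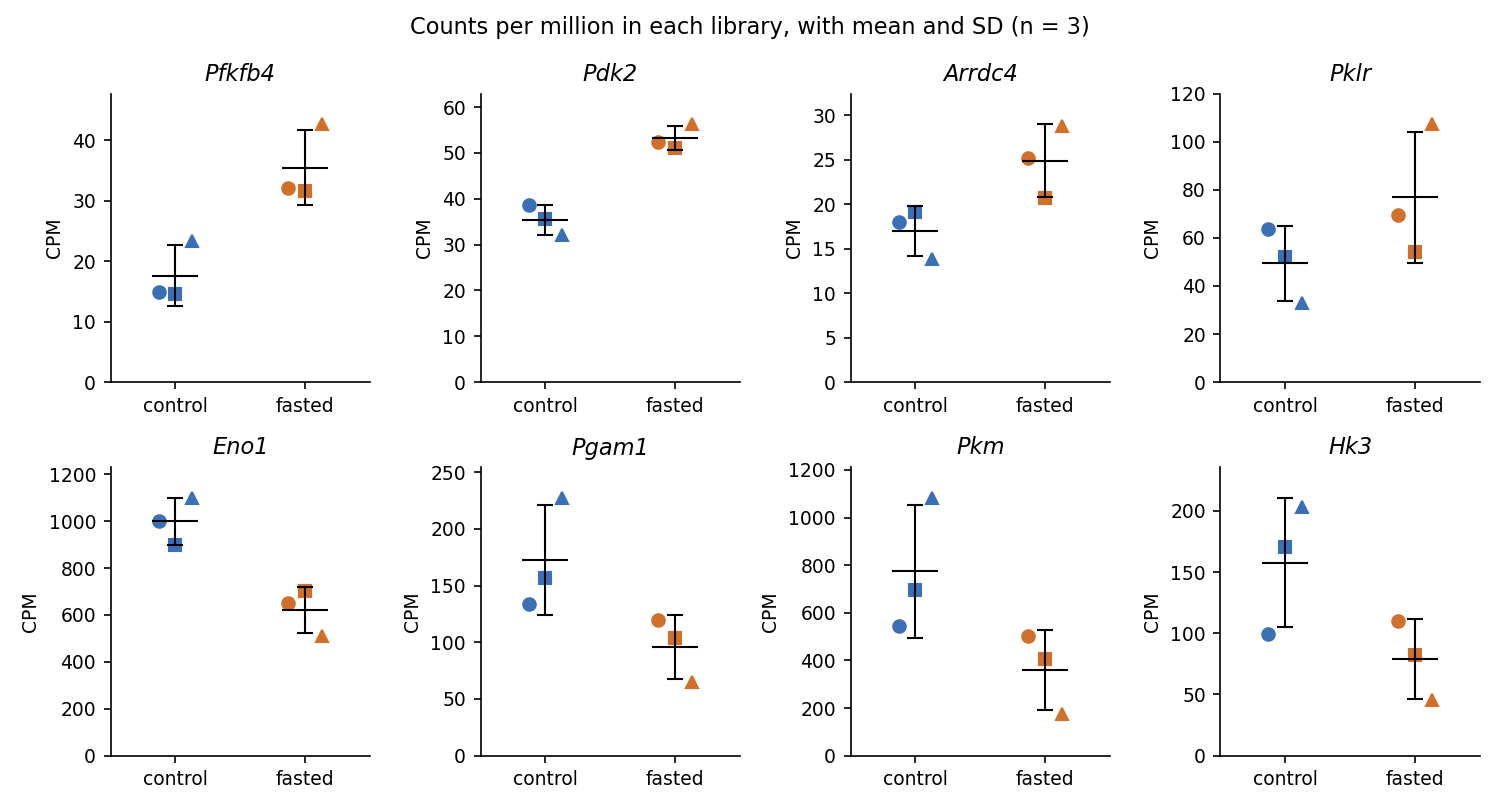
CPM of 8 members in each library (circle, square and triangle for libraries 1, 2 and 3), with the mean as a line and the SD as a bar, n = 3 in each group. Pfkfb4, Pdk2 and Arrdc4 lie higher in every fasted library, Eno1, Pgam1 and Pkm lie lower in every fasted library, and the groups overlap for Pklr and Hk3.

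Lower glycolysis had the lowest median of the roles and held Pkm, the member with the largest negative difference. Of its 7 members, 5 were below 0, where 47.7% of all genes were. For 4 of them, Pgk1, Pgam1, Eno1 and Pkm, every fasted library was below every control library, as for 12.9% of all genes. The median log2 fold change of the 7 was -0.45. Eno1 (ENSMUSG00000063524.13, chromosome 4, 150236721 to 150248879, plus strand) encodes the enolase of most cells. It had 999.8, 900.4 and 1099 CPM in the controls, against 650, 700 and 511 CPM after the fast. The groups stood well apart, with a log2 fold change of -0.69 (SE 0.15, 95% interval -1.03 to -0.35), an edgeR adjusted p of 0.131 and a DESeq2 adjusted p of 0.00913.

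Pgam1 (ENSMUSG00000011752.7, chromosome 19, 41911923 to 41918660, plus strand), the phosphoglycerate mutase before enolase, had 133, 157 and 227 CPM in the controls and 119, 104 and 64.6 CPM after the fast. Its lowest control library lay just above its highest fasted library. A log2 fold change of -0.85 was fitted (SE 0.26, edgeR adjusted p 0.164, DESeq2 adjusted p 0.0442). Pgk1, the first ATP-yielding kinase of the pathway, had 228, 232 and 255 CPM in the controls and 184, 195 and 144 CPM after the fast, with a log2 fold change of -0.45 (SE 0.14, edgeR adjusted p 0.159).

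Pyruvate kinase, the last step, comes from Pkm in most cells and from Pklr in liver and red cells. Pkm (ENSMUSG00000032294.17, chromosome 9, 59656368 to 59679375, plus strand) had 543, 696 and 1083 CPM in the controls, against 502, 405 and 176 CPM after the fast. It spanned the widest range of the lower enzymes, with fasted library 3 far below the rest and control library 1 close to fasted library 1. On the log2 scale the groups differed by -1.10 (SE 0.43, 95% interval -2.14 to -0.06), with an edgeR adjusted p of 0.237 and a DESeq2 adjusted p of 0.0442.

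Pklr (ENSMUSG00000041237.12, chromosome 3, 89136142 to 89146784, plus strand) went the other way, at 63.7, 52.1 and 32.8 CPM in the controls and 69.4, 54.1 and 107 CPM after the fast. The groups overlapped, and fasted library 3 was the highest. Fasted over control, the log2 fold change came to 0.63 (SE 0.30, edgeR adjusted p 0.288), 0.31 without fasted library 3, 0.38 without control library 3 and 0.05 on the scale of all filterByExpr genes. Of its 50-base words, 20.6% also occurred in 1 other annotated gene. Hcn3, which overlaps it on the other strand, had 82 to 147 counts per library. Of the 2 pyruvate kinase genes together, Pklr took 15.3, 10.4 and 4.47% per kilobase in the controls, against 17.6, 17.1 and 48.4% after the fast. All fasted shares were above all control shares, and the means differed by 17.7 percentage points (p = 0.1, two-sided exact permutation test, the smallest possible; adjusted p = 0.3). Without fasted library 3 the difference was 7.30 percentage points. The summed level of the 16 erythroid markers was 7515, 7976 and 4692 CPM in the controls and 6339, 7957 and 9840 CPM after the fast, also highest in fasted library 3 and lowest in control library 3. Between these the order differed, and control library 2 stood above fasted library 1 for the markers and below it for Pklr. The part of these markers in the Pklr values was not tested.

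The 250 bases before the annotated start of Pklr are shown for the AGATAA motif of GATA factors, in capitals, on the plus strand of GRCm38.p6 (RefSeq), chr3:89135892-89136141.

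Pklr: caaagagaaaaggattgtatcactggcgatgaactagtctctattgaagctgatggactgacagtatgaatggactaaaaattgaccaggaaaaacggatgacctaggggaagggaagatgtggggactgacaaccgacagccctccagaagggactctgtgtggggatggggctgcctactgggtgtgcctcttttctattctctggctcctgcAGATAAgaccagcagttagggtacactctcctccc

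AGATAA or its reverse complement was present in 9.99% of 32817 such windows of all genes and in 4 of 52 member windows (7.69%). Of 35 members with a RefSeq window, only Pklr and Pfkm had it. A match is a description and not a site.

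**Figure D4:**
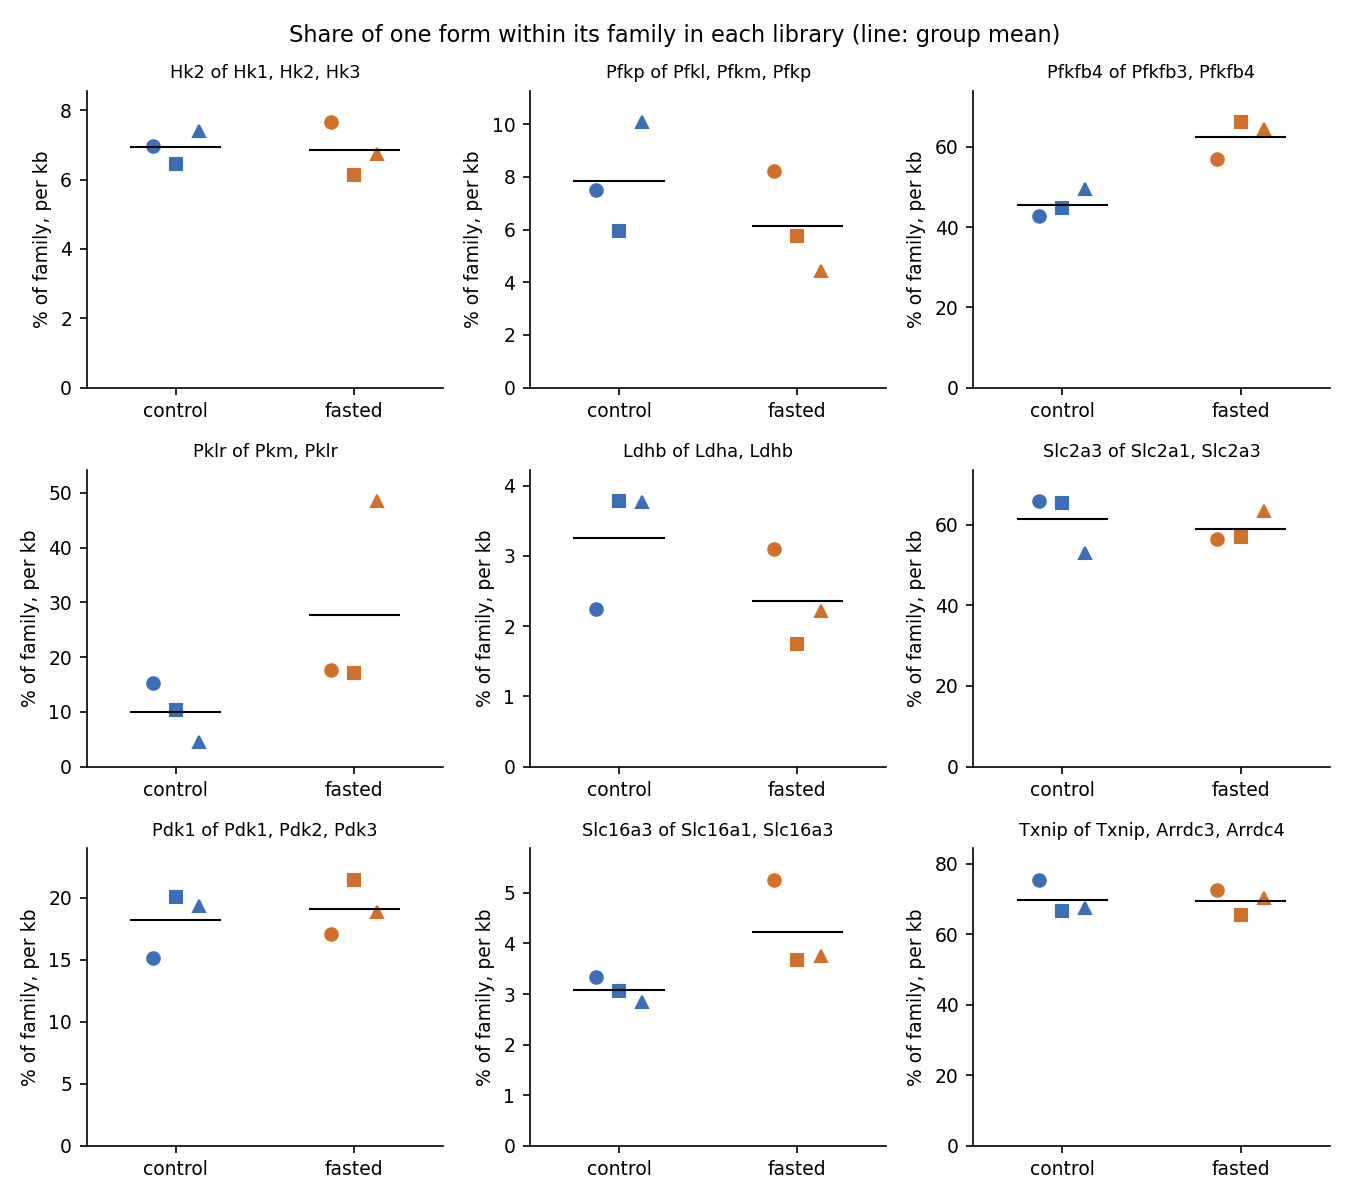
Share of 1 form within its family, in percent of the family's counts per kilobase, for 9 families and each of the 6 libraries; lines are group means and every axis starts at 0. The shares of Pfkfb4, Pklr and Slc16a3 are higher in all 3 fasted libraries than in any control library, and the other 6 families overlap.

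Bpgm, the enzyme that makes the 2,3-bisphosphoglycerate of red cells, had 43.2, 35.8 and 29.3 CPM in the controls, against 33.0, 36.9 and 33.3 CPM after the fast, with the fasted libraries inside the control range (log2 fold change -0.07, 95% interval -0.49 to 0.35). Gapdh ranged from 60.3 to 90.1 CPM over all 6 libraries, with a log2 fold change of 0.03 (95% interval -0.35 to 0.41) that becomes -0.46 on the scale of all filterByExpr genes. At 19.2 CPM per kilobase, Gapdh stood below Aldoa, Pgk1 and Eno1, at 234, 92.0 and 151. Of the 50-base words in Gapdh transcripts, 25.1% also occurred in transcripts of 223 other annotated genes, of which 215 are pseudogenes. The same share was 53.9% for Pgk1, 36.2% for Pgam1, 26.0% for Eno1 and 25.8% for Pkm. How reads that match several genes were counted is not stated, so the levels of these 5 genes are uncertain.

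The summed level of the granulocyte and monocyte markers was highest in control library 3 (20213 CPM) and lowest in fasted library 3 (2306 CPM). Pgk1, Pgam1, Eno1 and Pkm were all highest and lowest in the same 2 libraries. Their levels in control library 3 were 255, 227, 1099 and 1083 CPM, and in fasted library 3 they were 144, 64.6, 511 and 176 CPM. The order differed for library 1 of each group. There the markers were lower in the control than in the fasted library, at 4154 against 5307 CPM. Pgk1, Pgam1, Eno1 and Pkm were higher in that control library, at 228, 133, 999.8 and 543 CPM against 184, 119, 650 and 502 CPM. The marker list itself had 17 of its 18 genes below 0, where 47.7% of all genes were, with a median log2 fold change of -0.89. Of its genes 0 passed edgeR, and 8 were lower at an unadjusted p under 0.05, against 8.3% of all genes. DESeq2 passed 3 of them as lower, against 1.65% of all genes. The part of these markers in the members' differences was not tested.

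**Figure D5:**
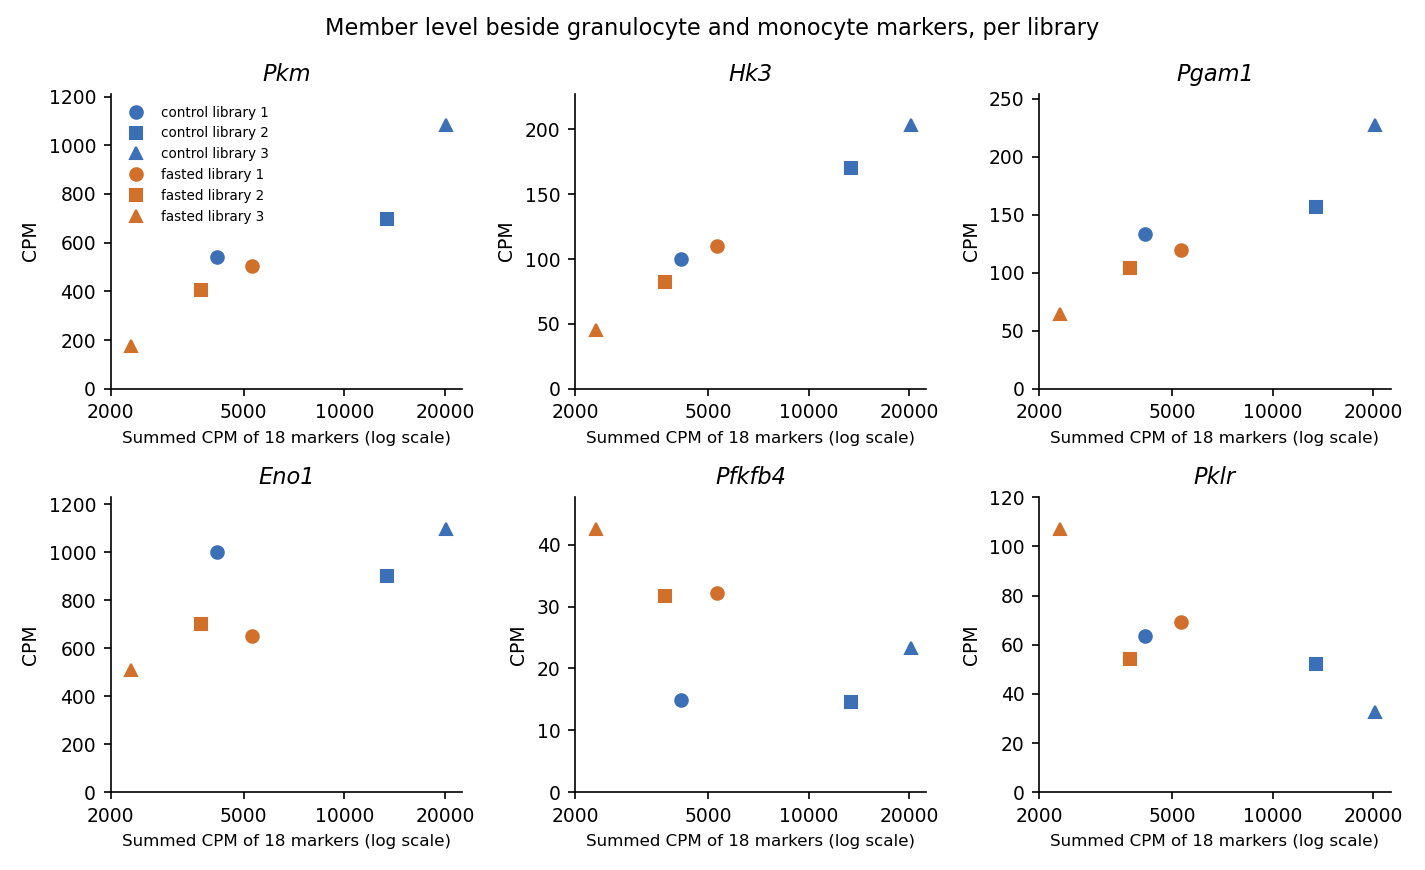
CPM of 6 members against the summed CPM of 18 granulocyte and monocyte markers (log axis) in each library. Hk3, Pkm, Pgam1 and Eno1 are highest in control library 3, where the markers are highest (20213 CPM), and lowest in fasted library 3, where the markers are lowest (2306 CPM). Control library 1 lies below fasted library 1 for the markers (4154 against 5307 CPM) and Hk3, but above it for Pkm, Pgam1 and Eno1.

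Pyruvate leaves as lactate or enters mitochondria. Ldha, the lactate dehydrogenase of glycolytic cells, was the most abundant member at 554 CPM per kilobase, at the 99.5th percentile of the genes tested. It had 2004, 2028 and 1805 CPM in the controls and 1609, 1839 and 1709 CPM after the fast. Fasted library 2 exceeded control library 3, so the groups overlapped, with a log2 fold change of -0.18 (95% interval -0.46 to 0.10). Ldhb, the form of oxidative tissues, had 21.8, 37.7 and 33.5 CPM in the controls and 24.4, 15.5 and 18.3 CPM after the fast, overlapping at control library 1 (log2 fold change -0.68, SE 0.26, edgeR adjusted p 0.212). Ldhb made up 3.26% ± 0.88 (SD, n = 3) of the pair in the controls and 2.35% ± 0.69 (SD, n = 3) after the fast (p = 0.2, two-sided exact permutation test, adjusted p = 0.45).

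The window before the Ldha start is shown because it held 2 copies of the E-box CACGTG, the letters bound by MYC, HIF and MondoA family factors among others. Capitals mark these and a further ACGTG, the core of the hypoxia response element, on the opposite strand (plus strand of GRCm38.p6, RefSeq, chr7:46845554-46845803).

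Ldha: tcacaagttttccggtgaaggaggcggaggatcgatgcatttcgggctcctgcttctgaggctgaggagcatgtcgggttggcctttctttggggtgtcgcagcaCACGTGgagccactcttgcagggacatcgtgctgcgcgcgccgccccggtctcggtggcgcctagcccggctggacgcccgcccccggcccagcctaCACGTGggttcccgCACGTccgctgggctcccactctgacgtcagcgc

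The first E-box begins 145 bases before the start and the second 48 bases before it. That start is RefSeq's and lies inside the gene as GENCODE M21 places it, from 46841475 to 46855627. CACGTG, which contains ACGTG, was present in 6 of 52 member windows (11.5%) and in 6.02% of all 32817 windows. ACGTG on either strand was present in 20 of 52 member windows (38.5%) and in 16.6% of all windows. Several members have more than 1 window, so the 52 windows are not independent.

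Pyruvate dehydrogenase kinases switch off the entry of pyruvate into the citric acid cycle. Pdk2 (ENSMUSG00000038967.13, chromosome 11, 95026258 to 95041354, minus strand) had 38.6, 35.5 and 32.1 CPM in the controls, against 52.4, 51.1 and 56.2 CPM after the fast. The spread within each group was small beside the gap between the groups. The fitted difference was 0.59 on the log2 scale (SE 0.15, 95% interval 0.25 to 0.93), with an edgeR adjusted p of 0.139 and a DESeq2 adjusted p of 0.0242, and it was 0.05 on the scale of all filterByExpr genes.

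Pdk3 went the other way, at 134, 119 and 123 CPM in the controls and 96.6, 97.4 and 95.8 CPM after the fast, with no overlap (log2 fold change -0.38, SE 0.12, edgeR adjusted p 0.159). Pdk1, a hypoxia-responsive kinase, had 89.5, 113 and 109 CPM in the controls, against 87.0, 115 and 99.7 CPM after the fast, with overlap (log2 fold change -0.04, 95% interval -0.39 to 0.30). Among the 3 kinases, Pdk1 held 18.2% ± 2.68 (SD, n = 3) per kilobase in the controls and 19.1% ± 2.18 (SD, n = 3) after the fast (p = 0.7, two-sided exact permutation test). The share of Pdk2 was 16.0, 15.6 and 14.0% in the controls and 25.3, 23.4 and 26.1% after the fast, and that of Pdk3 was 68.9, 64.3 and 66.7% and 57.6, 55.2 and 55.0%. These 2 shares were picked after their values were seen and were not tested, and they do not depend on the scaling between libraries. Pdk4, the kinase best known to be induced by fasting in muscle and liver, had 43 to 92 counts per library, 1.47 times the background, and could not be read.

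The window before Pdk2 held 1 E-box, in capitals, and is shown on the minus strand of GRCm38.p6 (RefSeq), chr11:95041372-95041621.

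Pdk2: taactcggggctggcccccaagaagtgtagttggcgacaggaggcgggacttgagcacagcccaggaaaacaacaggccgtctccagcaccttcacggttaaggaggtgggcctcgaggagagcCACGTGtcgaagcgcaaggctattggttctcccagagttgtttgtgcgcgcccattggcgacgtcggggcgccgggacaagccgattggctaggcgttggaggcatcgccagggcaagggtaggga

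The dehydrogenase subunits Pdha1 and Pdhb had log2 fold changes of -0.13 (SE 0.12) and -0.16 (SE 0.12), and edgeR adjusted p of 0.592 and 0.454. The lactate transporter Slc16a1 (MCT1) ranged from 301 to 356 CPM in the controls and from 212 to 319 CPM after the fast (log2 fold change -0.21, SE 0.17, edgeR adjusted p 0.507). Slc16a3 (MCT4), the exporter of highly glycolytic cells, was the only member left out of the test, with 415, 270 and 210 counts in the controls and 162, 215 and 198 after the fast, 3.37 times the background. Its share of the 2 transporters was higher in every fasted library, by 1.14 percentage points (p = 0.1, two-sided exact permutation test, the smallest possible; adjusted p = 0.3). With background subtracted the difference was 0.15 percentage points, and without fasted library 1 it was 0.62.

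All 4 pentose phosphate members were below 0, by small amounts, where 47.7% of all genes were. Taldo1, a transaldolase, was the highest per length at 234 CPM per kilobase and had 520, 585 and 465 CPM in the controls and 463, 536 and 486 CPM after the fast (log2 fold change -0.08, 95% interval -0.37 to 0.21). Pgd, which makes NADPH from 6-phosphogluconate, had 175, 219 and 225 CPM in the controls and 167, 158 and 169 CPM after the fast, with no overlap (log2 fold change -0.33, SE 0.13, edgeR adjusted p 0.222). G6pdx, the entry enzyme that makes NADPH, had 161, 208 and 177 CPM in the controls and 143, 167 and 159 CPM after the fast, with overlap (log2 fold change -0.22, SE 0.14, edgeR adjusted p 0.388). Tkt, a transketolase, was lower in every fasted library, by a log2 fold change of -0.19 (SE 0.11, edgeR adjusted p 0.383).

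Txnip, Arrdc3 and Arrdc4 encode alpha-arrestins. Txnip and Arrdc4 are read out by MondoA as glucose accumulates in the cell, and both proteins restrain glucose uptake by drawing transporters from the surface. Txnip (ENSMUSG00000038393.14, chromosome 3, 96557957 to 96561883, plus strand) had 119, 87.7 and 86.5 CPM in the controls, against 122, 85.8 and 124 CPM after the fast. Each group held both high and low libraries, so no difference could be seen beyond the spread (log2 fold change 0.18, 95% interval -0.25 to 0.60, edgeR adjusted p 0.619). On the scale of all filterByExpr genes it was -0.38. Its antisense neighbour Gm15441 had 45 to 62 counts per library against 1346 to 3344 for Txnip.

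Arrdc4 (ENSMUSG00000042659.15, chromosome 7, 68736995 to 68749241, minus strand) had 18, 19.1 and 13.8 CPM in the controls and 25.2, 20.7 and 28.8 CPM after the fast. All fasted libraries were above all control ones, the nearest pair by a narrow margin. A log2 fold change of 0.55 was fitted (SE 0.22, edgeR adjusted p 0.226), and 0.00 on the scale of all filterByExpr genes. Arrdc4 lay at 6.73 times the background, and with background subtracted the value was 0.54. Arrdc3 had 50.4, 58.5 and 62.3 CPM in the controls, against 53.3, 59.1 and 60.4 CPM after the fast, inside the control range, with a log2 fold change of 0.01 (95% interval -0.32 to 0.35). Txnip took 69.8% ± 4.80 (SD, n = 3) of the 3 arrestins per kilobase in the controls and 69.4% ± 3.68 (SD, n = 3) after the fast (p = 1, two-sided exact permutation test).

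The windows before Txnip and Arrdc4 are shown for the elements through which MondoA and ChREBP act. A carbohydrate response element, searched on both strands as 2 copies of CACGNG with 5 bases between them, was present in 15 of 32817 windows (0.0457%) and, among the members, in that of Txnip only. The letters were chosen with the known Txnip element in mind, so its match there was known beforehand. It runs from 85 to 69 bases before the start, and the Txnip window also held GTAAACA, the motif of FOXO factors, at 121 to 115 bases before the start (GTAAACA or its complement was in 3.16% of all windows). Capitals mark both in Txnip (plus strand of GRCm38.p6, RefSeq, chr3:96557707-96557956) and an E-box in Arrdc4 (minus strand, chr7:68749239-68749488).

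Txnip: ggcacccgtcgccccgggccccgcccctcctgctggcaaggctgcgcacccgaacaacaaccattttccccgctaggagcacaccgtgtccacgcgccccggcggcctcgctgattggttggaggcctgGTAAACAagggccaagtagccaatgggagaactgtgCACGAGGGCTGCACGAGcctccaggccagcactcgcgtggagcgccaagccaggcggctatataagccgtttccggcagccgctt

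Arrdc4: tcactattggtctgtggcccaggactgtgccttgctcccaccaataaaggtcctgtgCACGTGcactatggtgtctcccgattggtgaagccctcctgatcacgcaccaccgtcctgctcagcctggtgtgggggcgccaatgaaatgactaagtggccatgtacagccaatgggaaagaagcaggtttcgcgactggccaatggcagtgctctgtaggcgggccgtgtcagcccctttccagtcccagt

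Other genes of the same pathways, from lists written from general knowledge, gave 0 genes that passed edgeR. DESeq2 passed 2, Prps1 and Prps2, both as lower, where 1.65% of all genes were. Among 8 tested of 22 other glycolysis genes, 1 was higher and 2 lower at an unadjusted p under 0.05. Of all genes, 11.5% were higher and 8.3% lower at that limit. The largest differences were in Slc2a8, a transporter of inner membranes, at 0.77 (SE 0.24), and Pgm1, a phosphoglucomutase, at -0.76 (SE 0.26). Of 10 tested genes around pyruvate, 9 were below 0, where 47.7% of all genes were. Their 2 largest differences were in the pyruvate dehydrogenase phosphatases Pdp2 and Pdp1, at -0.53 (SE 0.21) and -0.51 (SE 0.27). Of the kinases that these phosphatases oppose, Pdk2 was at 0.59, Pdk1 at -0.04 and Pdk3 at -0.38. On the scale of all filterByExpr genes those kinases were at 0.05, -0.54 and -0.90.

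Of 5 other tested genes in or next to the pentose phosphate pathway, 3 were lower at an unadjusted p under 0.05, where 8.3% of all genes were. The groups did not overlap for 3 that were lower, where 12.9% of all genes were. Prps1 and Prps2, which turn ribose 5-phosphate into the precursor of nucleotides, were both at -0.53 (SE 0.14 and 0.13), with edgeR adjusted p of 0.146 and 0.131 and DESeq2 adjusted p of 0.0455 and 0.0182. Among 8 tested regulators, Irs2 and Insr, an adaptor and the receptor of insulin signalling, were at 0.66 (SE 0.22) and 0.46 (SE 0.18), higher in every fasted library. Both lay just above the limit, at 5.44 and 5.75 times the background, with edgeR adjusted p of 0.1695 and 0.2116. On the scale of all filterByExpr genes Irs2 was at 0.17 and Insr turned to -0.04. Of 12 tested hypoxia genes, 8 were below 0, where 47.7% of all genes were, with a median of -0.07. The mitophagy gene Bnip3 was at -0.68 (SE 0.23) and the stress gene Ddit4 at 0.60 (SE 0.38).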

How the data were processed

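Polyadenylated RNA of sorted megakaryocyte-erythroid progenitors was sequenced in 6 libraries, per the labels' protocols. The authors deposited raw counts per gene with each gene's exonic length. The submitters' processing notes name GRCm38, HISAT2 2.2.1 and featureCounts 2.0.1; the annotation release and the strand and multi-mapping settings are not given in the sources used here. Of 55487 identifiers, 54435 matched GENCODE M21 of GRCm38 with their version, all with the same exonic length.

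Background was the summed counts of 1422 odorant and vomeronasal receptor genes over their summed length. Genes kept by filterByExpr with a mean count over all libraries of at least 5 times the mean background (10635) were scaled by TMM and fitted with edgeR 4.0.16 (R 4.3.3, estimateDisp and glmQLFit with robust settings, with 1 term for group). A gene passed at an adjusted p under 0.05 (Benjamini-Hochberg over all genes tested). The SE is the log2 fold change over the square root of F. DESeq2 1.42.0 and limma-voom (limma 3.58.1) were alternatives. The fit was tested on simulated data that held no difference in background between the groups. That test therefore does not bear on the scaling. Shares within 9 isozyme families were compared by two-sided exact permutation tests (scipy 1.17.1). The members, lists and tests were chosen with earlier results of these data known, which is why genes near background were kept out of the scaling. Per-library values are given for the member with the highest level and the 2 with the largest differences in each role and for those a list named. Those of Pfkl, Pgk1 and Pdk3 were added after their values were seen. From each other list the 2 genes with the largest differences are named. Promoter windows are RefSeq's for GRCm38.p6, 250 bases before each start.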

Additional observations from a re-analysis of the deposited data

How the results depend on the processing

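Several signs depend on the scaling. Scaling and testing all filterByExpr genes together passed 1813 genes and 13 members, with a members' median of -0.68, and turned the sign of Slc2a1 -0.30, Slc2a3 -0.43, Hk1 -0.42, Pfkm -0.32, Pfkfb3 -0.48, Gapdh -0.46, Txnip -0.38 and Arrdc3 -0.49. Testing every gene with a count passed 2849 genes and 15 members, with a median of -0.72, and turned Slc2a1 -0.33, Slc2a3 -0.47, Hk1 -0.46, Pfkm -0.36, Pfkfb3 -0.51, Gapdh -0.50, Txnip -0.42, Arrdc3 -0.53 and Arrdc4 -0.0339. Testing all filterByExpr genes on the scale of those at or above 5 times background passed 5245 genes, of which 4990 were higher, and 5 members. A limit of 3 times background passed 6 genes and turned Slc2a3 -0.0607, Pfkfb3 -0.080, Gapdh -0.0901 and Arrdc3 -0.11. A limit of 10 times turned Bpgm 0.012 and Pdk1 0.0301. DESeq2 passed 502 genes and 5 members. Small values also changed sign with upper-quartile factors (Bpgm 0.000151 and Pdk1 0.020), RLE factors (Arrdc3 -0.00874), library totals (Arrdc3 -0.0136), DESeq2 (Arrdc3 -0.00818) and background subtraction (Pfkfb3 -0.10 and Arrdc3 -0.00685). The difference in Txnip share was 0.36 percentage points without division by length and 0.84 with background subtracted. The cause was not tested.

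Leaving out 1 library at a time passed 0 to 3 genes (3 without control library 1 and 3 without control library 3) and 0 members. The members' median ran from -0.25, without fasted library 2, to -0.11, without fasted library 1, and its gap to the genes at or above 5 times background from -0.24 to -0.14. Log2 fold changes that crossed 0 had these ranges: Slc2a1 -0.0707 to 0.60, Slc2a3 -0.0993 to 0.17, Hk1 -0.0637 to 0.45, Pfkm -0.0379 to 0.41, Pfkfb3 -0.0717 to 0.18, Gapdh -0.13 to 0.12, Bpgm -0.23 to 0.0791, Pdk1 -0.19 to 0.0462 and Arrdc3 -0.0698 to 0.064. Differences in share that crossed 0, in percentage points, were Hk2 -0.50 to 0.25, Pdk1 -0.60 to 1.95 and Txnip -1.96 to 2.40. Over the 660 single-member alternatives, 574 kept their sign and side of the threshold, 38 came to pass and 48 turned sign. No member passed to begin with, so none could lose a call.

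Same-numbered libraries did not deviate together (correlations across genes of -0.16, 0.13 and -0.28), so the numbers were not taken as pairs. With the replicate number as a block, 0 genes and 0 members passed, the smallest adjusted p of a member was 0.2355 and the members' median was -0.17. The fasted libraries' lower depth and higher background limit what can be read of genes near background, such as Slc16a3 and Pdk4.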
